A study of Mus musculus with 4 samples.

Results

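Bone marrow-derived dendritic cells given CAF.CM were compared with cells of the same kind left in control medium, over all 13329 genes listed in the deposited table for that pair of libraries. The 3 deposited tables together list 13685 genes. A gene entered by being listed, so no ratio of this comparison was used to choose it, and the lowest of the listed genes reached 1.00 CPM (the counts-per-million scale, after the authors' adjustment of library sizes) in its higher library. CAF.CM is the labels' name for the culture medium of CAFs, the usual abbreviation for cancer-associated fibroblasts.

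All cells came from C57BL/6 mice aged 4 weeks, with no allele or transgene named in the labels. Marrow was cultured for 7 days in GM-CSF at 10 ng/ml plus the same amount of IL-4. The 4 groups are control medium, Wnt2, CAF.CM, and CAF.CM that had been mixed with an antibody against Wnt2 beforehand. No source used here gives where the CAFs came from, or the dose and length of each exposure. Each group has 1 library. The series' design text mentions triplicates, and whether 1 library pools several cultures or animals is unknown. Differences below could not be checked against replicates, so p-values are not given.

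Listed genes held 143054888 reads in control medium and 25220874 with CAF.CM, so the control library was 5.67 times deeper, and 1 read was worth 0.00706 CPM in the first and 0.0384 CPM in the second. Depth and treatment cannot be told apart in this pair. Every ratio below is a log2 ratio of CAF.CM over control medium, its interval is the 95% exact binomial interval on the reads behind it, and that interval covers counting error only. Genes are counted as higher or lower from a 2-fold difference upward. CPM values are not divided by transcript length, so levels are compared between libraries and not between genes. In whole-culture RNA, fewer cells of a type and less RNA per cell cannot be told apart.

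Dendritic cells grown with GM-CSF and IL-4 are a mixed myeloid culture of dendritic and macrophage character. Such cells read soluble signals through receptors that end on a small set of transcription factors. Interferons act through STAT and IRF proteins on antiviral genes, cytokines of the IL-6 family act through STAT3, and IL-1, TNF and Toll-like receptor ligands act through NF-kappaB. Fibroblast media can carry cytokines, matrix proteins, growth factors and metabolites, and tumour-associated fibroblasts are known for altering how myeloid cells present antigen and recruit other leukocytes.

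The labelled cell type had its defining genes in part. Zbtb46, a transcription factor of conventional dendritic cells, read 15.7 CPM in control medium and 17.1 CPM with CAF.CM, and the MHC class II gene H2-Ab1 read 489 and 483 CPM. Itgax, which encodes CD11c, read 888 CPM in control medium and 47.7 CPM with CAF.CM (ratio -4.22, interval -4.30 to -4.14). Flt3 and Xcr1 were not listed, and a gene that is not listed is not shown to be unexpressed. The macrophage receptor genes Csf1r (1087 and 768 CPM) and Adgre1 (349 and 404 CPM) were read in both libraries.

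The sequences upstream of 5 genes are shown first, because they hold the short motifs that interferon, STAT, NF-kappaB and C/EBP factors are known to recognise, beside genes whose ratios are given further on. Each is the stretch of 250 bases that ends just before 1 annotated start of the gene, on the gene's own strand, from RefSeq on GRCm38.p6. Where a gene had several starts, the one with most GENCODE transcript starts close to it was taken. Capitals mark a match on either strand to GAAANNGAA (the core of the interferon-stimulated response element, ISRE), TTCNNNGAA (a STAT site), GGGANTTTC (an NF-kappaB site) or TTGCNNAAT (a C/EBP site), and matches can overlap each other. Ifit1 (chr19:34640639-34640888, plus strand) and Isg15 (chr4:156200819-156201068, minus strand) encode antiviral proteins, and each window has 3 overlapping or nearby ISRE matches, which begin 109, 103 and 84 bases before the start in Ifit1 and 78, 72 and 66 bases before it in Isg15. Gbp5 (chr3:142496684-142496933, plus strand), a guanylate-binding GTPase gene, has 1 ISRE, 2 NF-kappaB and 2 STAT matches. The Gbp5 window lies inside the gene as annotated in GENCODE M21, which begins at 142493978, so it precedes a later start. Il6 (chr5:30012864-30013113, plus strand), the interleukin-6 gene, has an NF-kappaB match 44 bases and a C/EBP match 129 bases before the start. Socs3 (chr11:117969367-117969616, minus strand), the gene of a feedback inhibitor of cytokine receptors, has a STAT match 154 bases before it. The 5 genes were picked with the matches and ratios in view.
Ifit1: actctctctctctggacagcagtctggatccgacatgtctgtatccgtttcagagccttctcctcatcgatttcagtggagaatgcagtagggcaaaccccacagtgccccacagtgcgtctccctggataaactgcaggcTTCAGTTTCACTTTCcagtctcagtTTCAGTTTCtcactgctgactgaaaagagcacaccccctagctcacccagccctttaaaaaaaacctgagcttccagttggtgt
Isg15: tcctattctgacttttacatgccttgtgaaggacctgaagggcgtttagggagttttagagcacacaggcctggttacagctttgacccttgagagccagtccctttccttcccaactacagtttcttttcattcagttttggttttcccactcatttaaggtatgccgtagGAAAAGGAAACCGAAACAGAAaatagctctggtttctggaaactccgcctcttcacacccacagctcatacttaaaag
Gbp5: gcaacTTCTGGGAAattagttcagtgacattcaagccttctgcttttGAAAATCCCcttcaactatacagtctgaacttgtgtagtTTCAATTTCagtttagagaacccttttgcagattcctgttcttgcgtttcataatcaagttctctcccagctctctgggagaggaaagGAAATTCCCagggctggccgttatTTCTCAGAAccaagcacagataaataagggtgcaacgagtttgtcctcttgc
Il6: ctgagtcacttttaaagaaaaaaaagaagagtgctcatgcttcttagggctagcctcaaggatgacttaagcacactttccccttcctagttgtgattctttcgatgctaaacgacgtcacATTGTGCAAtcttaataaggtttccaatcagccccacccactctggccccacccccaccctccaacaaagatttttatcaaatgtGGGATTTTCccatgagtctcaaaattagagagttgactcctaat
Socs3: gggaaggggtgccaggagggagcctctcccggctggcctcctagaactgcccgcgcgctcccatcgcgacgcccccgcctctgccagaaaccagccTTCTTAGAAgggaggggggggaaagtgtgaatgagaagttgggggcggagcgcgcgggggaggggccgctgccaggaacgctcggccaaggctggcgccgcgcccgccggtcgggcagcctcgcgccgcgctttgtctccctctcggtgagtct

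Over all protein-coding listed genes, 8990 of 11529 had such a window, and 6.62% of the windows held an ISRE match. The share was 14.1% among 489 windows of genes at least 2-fold higher, 19.7% among 137 windows of genes at least 4-fold higher, and 7.13% among 743 windows of genes at least 2-fold lower. Among 161 windows of genes at least 4-fold lower it was 11.8%, so the genes with the largest ratios in both directions held the match more often than the whole table. An NF-kappaB match lay in 0.845% of all windows, 2.45% of those of higher genes and 0.942% of those of lower genes. At 4-fold these were 2.19% of the higher (3 of 137) and 0.621% of the lower windows (1 of 161). STAT matches stood at 6.00%, 6.54% and 5.52% in the same order, with 10.2% (14 windows) and 3.73% (6 windows) at 4-fold. C/EBP matches stood at 1.54%, 3.07% and 2.42%, with 3.65% and 3.11% at 4-fold, or 5 windows each. The 4-fold shares of these motifs thus rest on few windows. By family, an ISRE match lay in 6 of 6 windows of immunity-related GTPases (IRG), 4 of 4 of guanylate-binding proteins (GBP) and 8 of 10 of the Ifi200 family. The IRG and GBP families had 10 and 9 listed genes, and those without a window were not searched. An ISRE match lay in 13 of 29 windows of the antiviral effector genes, Ifit1 and Isg15 among them. It lay in 3 of 7 of the Schlafen family and 1 of 6 of the IFITM family. Among interferon receptors and signalling genes it lay in 3 of 22 windows. A match describes these letters in this window and is not a measured binding site.

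Across all listed genes the ratios were close to balanced, with a median of -0.04 and the middle 50% of genes between -0.41 and 0.30. With CAF.CM 891 genes were at least 2-fold higher, which is 6.68% of the table, and 1158 were at least 2-fold lower, which is 8.69%. These shares are the background for each list below. At 4-fold there were 268 higher and 290 lower genes, at 8-fold 117 and 106, and at 32-fold 36 and 28. For 640 of the higher and 758 of the lower genes the counting interval lay wholly beyond 2-fold. Shares differed by level: among 1806 genes under 2 CPM on average, 16.5% were higher and 17.2% lower. Among 5122 genes from 10 to 50 CPM they were 3.69% and 5.45%. Every listed gene reached at least 1.00 CPM in its higher library, so the lowest means can only come from genes more than 2-fold apart. Part of the excess under 2 CPM is therefore set by how genes were listed. How large that part is was not tested, so no link between ratio and level is drawn from this class. Among the 621 genes of at least 200 CPM the shares were 9.34% and 12.7%, although counting error is smallest there.

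**Figure D1:**
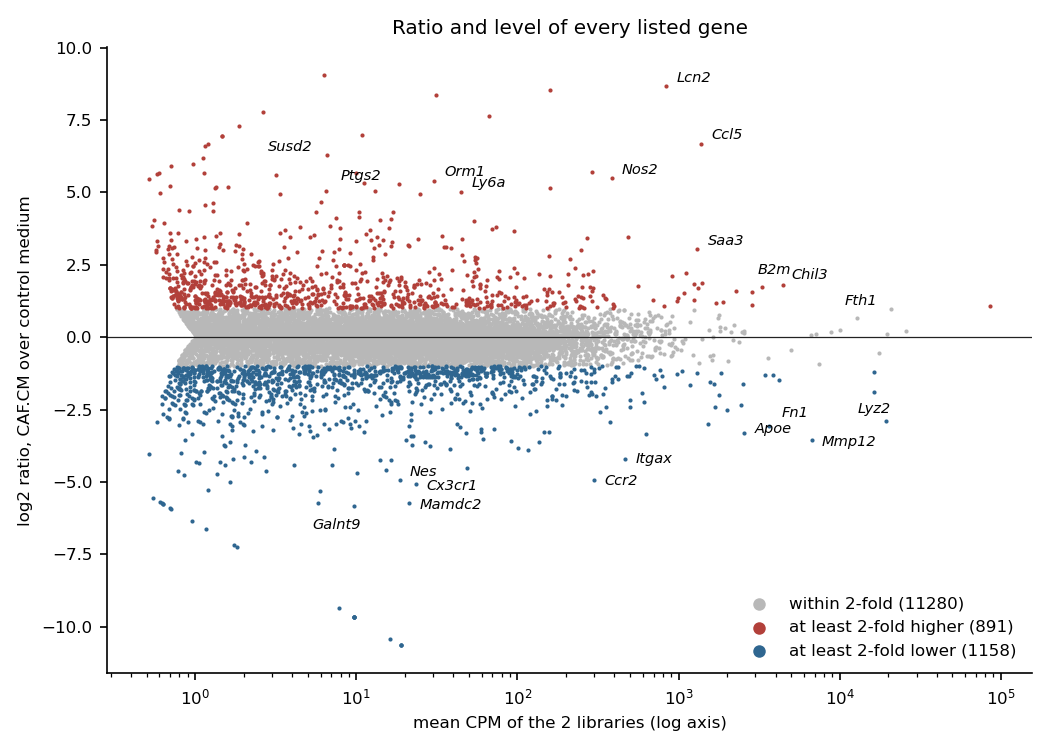
Log2 ratio of CAF.CM over control medium (vertical axis) against the mean CPM of both libraries (horizontal log axis) for the 13329 listed genes, 1 point per gene. Red points are the 891 genes at least 2-fold higher and blue points the 1158 at least 2-fold lower, and genes with 0 reads in a library are drawn with a prior count of 2.

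Measured as CPM gained or lost and not as a ratio, other genes led. The ranking here covers protein-coding genes and leaves out mitochondrial and predicted ones, and some RNAs outside it differed by more CPM. Fth1, the ferritin heavy chain gene, gained most within it, from 9836 to 15748 CPM at a ratio of only 0.68. Chil3, which encodes a chitinase-like secreted protein, went from 1971 to 6903 CPM, B2m, the invariant light chain of MHC class I, from 1508 to 5075 CPM, and Tgm2, a protein cross-linking transglutaminase, from 1445 to 4251 CPM. These 4 genes were already abundant in control medium, whereas Ccl5, Saa3 and Lcn2, also among the 10 largest gains, started from 26.5, 279 and 4.05 CPM. Within the same ranking Lyz2, the macrophage lysozyme gene, lost most, from 25764 to 6907 CPM. Mmp12, macrophage elastase, went from 12344 to 1053 CPM and Fn1, fibronectin, from 6538 to 785 CPM. Ftl1 shares 85.4% of its 31-base words with other genes, and Chil3 44.8%, so reads of both could be split between copies.

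**Figure D2:**
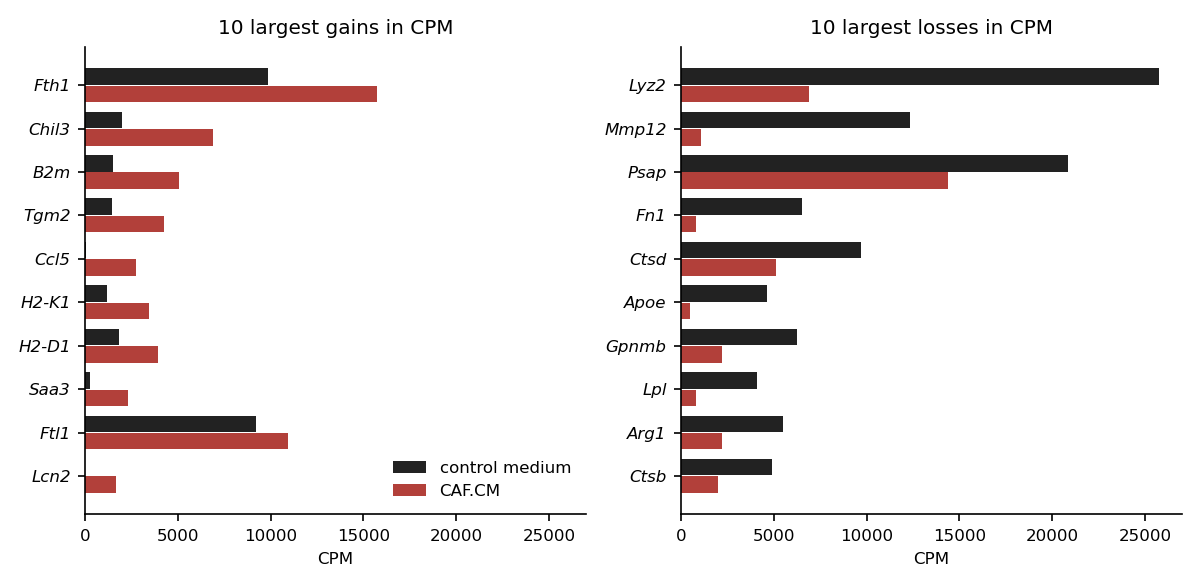
CPM in control medium (black bars) and CAF.CM (red bars) of the 10 protein-coding genes with the largest gain (left) and the 10 with the largest loss (right), mitochondrial and predicted genes left out. Lyz2 went from 25764 to 6907 CPM and Fth1 from 9836 to 15748 CPM, and both axes start at 0.

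Antiviral genes of the interferon response were higher in 25 of 39 members and lower in 0. The IFIT proteins, which bind viral RNA, had 5 of 5 genes higher, with a median ratio of 3.37. Ifit2 read 5.50 CPM in control medium and 62.3 CPM with CAF.CM (ratio 3.50, interval 3.38 to 3.63), and Ifit1 2.73 and 25.1 CPM. Ifit3 stood at 3.37 and Ifit3b at 2.27, but they share 61.8% and 55.2% of their words with other genes, mostly of the same family, so their reads are uncertain. Of the 2'-5' oligoadenylate synthetase genes, whose products switch on RNase L, 4 of 8 were higher: Oasl1 (3.56), Oasl2 (2.35), Oas3 (2.33) and Oas2 (2.08). The 4 Oas1 genes were not, and ranged from 0.03 in Oas1g to 0.88 in Oas1c.

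The 26 other core effectors had a median of 1.39, with 16 higher and 0 lower. Rsad2, which encodes the antiviral enzyme viperin, went from 13.8 to 177 CPM (ratio 3.67, interval 3.60 to 3.75). The transporter chaperone gene Rtp4 stood at 3.15, Ifi27l2a at 3.09, Ifi44 at 2.78, the exonuclease gene Isg20 at 2.73 and the nucleotide kinase gene Cmpk2 at 2.47. Isg15, which encodes a ubiquitin-like protein, was read at low levels, at 1.36 and 5.49 CPM (ratio 2.00, interval 1.69 to 2.34). Usp18, which encodes the protease that removes ISG15 from its targets, stood at 2.01. Members within 2-fold included the nucleotide hydrolase gene Samhd1 (372 and 642 CPM, ratio 0.79) and Parp14, of an ADP-ribosylating enzyme (151 and 231 CPM, ratio 0.61). Tor3a was at -0.01.

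Interferon-inducible GTPases, which attack vacuoles that hold pathogens, were higher in nearly every member. Of 9 GBP genes 8 were higher (median 1.94), and Gbp8 stood just below at 0.90. Gbp4 went from 1.82 to 31.1 CPM (ratio 4.08, interval 3.89 to 4.30), Gbp5 from 2.21 to 24.6 CPM (3.46), and Gbp2 from 41.2 to 82.8 CPM (1.01). Of 10 IRG genes 9 were higher (median 2.56). Iigp1 went from 0.749 to 25.5 CPM (5.05, interval 4.79 to 5.40), while the regulatory members Irgm1 (1.37), Irgm2 (1.11) and Igtp (11.6 and 24.9 CPM) were the lowest of the called ones. Tgtp1 and Tgtp2 share 92.9% and 94.6% of their words and cannot be told apart, at 2.64 and 3.20. Members of 1 family thus differed widely in size, although nearly all stood on the same side.

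The Ifi200 family, DNA-binding proteins coded side by side on chromosome 1, had 7 of 11 members higher and 0 lower (median 1.19). Ifi205 went from 0.360 to 12.7 CPM (5.05, interval 4.71 to 5.59) and Ifi213 from 1.06 to 14.8 CPM (3.78). Aim2, the cytosolic DNA sensor that starts an inflammasome, stood at 0.10 with 60.1 and 64.2 CPM, and Ifi207 at -0.30. Of 14 innate sensor genes 4 were higher and 0 lower. That list holds Nod1, Nod2 and the endosomal receptor gene Tlr9 beside cytosolic nucleic acid sensors. The RNA sensors Dhx58 (1.42), Ddx58 (42.9 and 91.9 CPM) and the sensors Zbp1 (1.97) and Nod2 (1.11) were higher, whereas Tmem173, which encodes STING, went from 33.8 to 19.5 CPM (-0.79), and the endosomal receptors Tlr7 (-0.80) and Tlr9 (-0.89) also stood below 0. Slfn4, of the Schlafen growth regulators, went from 7.73 to 82.3 CPM (3.41), with 4 of 8 family members higher, and Ifitm3 and Ifitm2, membrane barriers to viral entry, stood at 0.70 and 0.72.

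**Figure D3:**
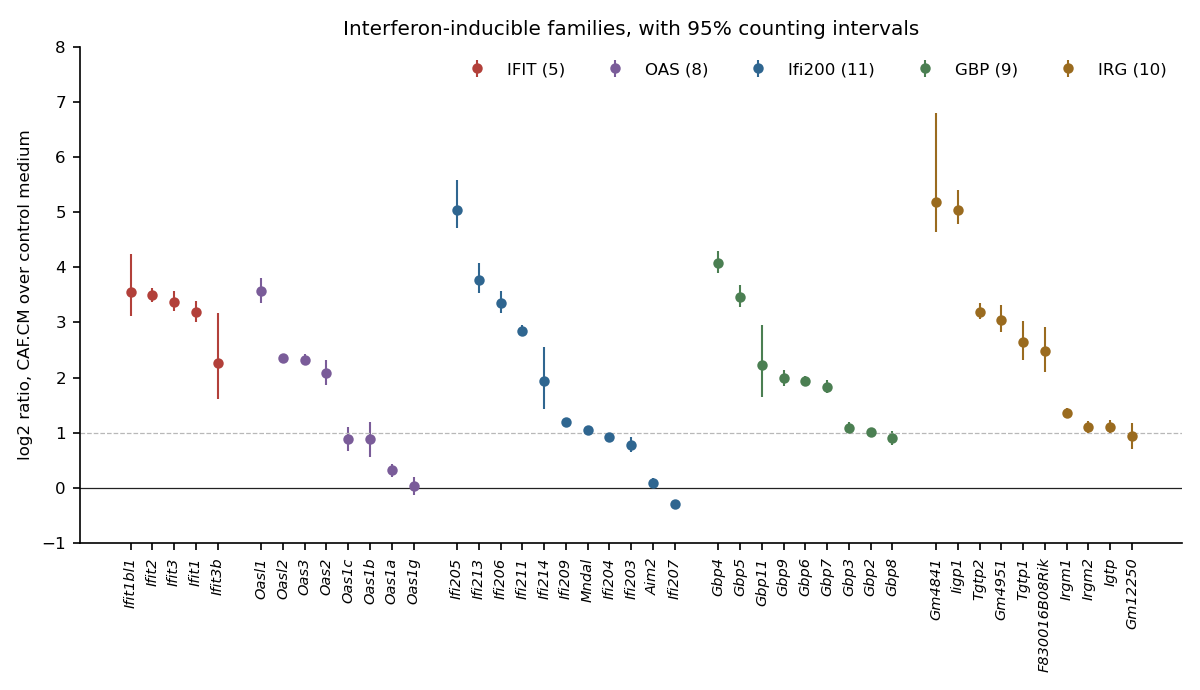
Log2 ratio of CAF.CM over control medium for each listed member of the IFIT, OAS, Ifi200, GBP and IRG families, with bars for the 95% counting interval. Within every family the members spread widely, from 0.03 (Oas1g) to 3.56 (Oasl1) among the OAS genes and from -0.30 (Ifi207) to 5.05 (Ifi205) in the Ifi200 family.

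The signalling genes themselves had smaller ratios than most of these targets. Of 24 receptors, IRF, STAT and JAK genes 5 were higher and 0 lower. Irf7, the factor that amplifies type I interferon output, led with 9.74 CPM in control medium and 129 CPM with CAF.CM (3.73, interval 3.64 to 3.83). Stat4 (1.87), Jak2 (1.47) and the receptor chain gene Ifnar2 (1.38) were also higher. Jak2 went from 181 to 503 CPM, while Stat3 stood at 0.16 (151 and 168 CPM), Stat6, the IL-4 signal carrier, at -0.58, Irf8 at -0.62 and the interferon-gamma receptor gene Ifngr1 at -0.70. The interferon ligand genes Ifnb1, Ifng, Ifna4 and Ifnl3 were not listed.

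A few feedback inhibitors stood out. Socs3 went from 13.8 to 94.9 CPM (2.78, interval 2.70 to 2.87), Socs1 from 1.74 to 9.68 CPM (2.46) and Cish, a STAT5 target, from 4.82 to 18.6 CPM (1.94). The other 10 of 13 listed members were not higher, and Socs6 was lower at -1.17. In the NF-kappaB pathway, where inhibitors are themselves targets, 3 of 30 genes were higher and 0 lower. They were Nfkbia (75.1 and 240 CPM, 1.68), which encodes the main inhibitor, Tnfaip3 (61.9 and 142 CPM, 1.19), the A20 deubiquitinase gene, and the adaptor gene Traf1 (29.2 and 99.4 CPM, 1.76). The 5 subunit genes had a median of -0.03, with Rela at -0.03 and Nfkb1 at -0.12.

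Some runs of neighbouring genes held the same families (positions from GENCODE M21 on GRCm38). Among protein-coding listed genes in chromosome order, 22 runs of at least 3 neighbours were all higher and 29 were all lower. Of protein-coding genes 5.7% were higher and 8.7% lower, and how many runs such shares alone would give was not worked out. Ifit2, Ifit3, Ifit1bl1, Ifit3b and Ifit1 formed 1 run on chromosome 19 from 34550694 to 34650009, with a median of 3.37. Gbp5, Gbp7, Gbp3 and Gbp2 formed another on chromosome 3 from 142493978 to 142638008, and Ly6e, Ly6i, Ly6a and Ly6c2 one on chromosome 15 from 74955051 to 75111970. On chromosome 17 from 35262730 to 35474563 the run was H2-D1, H2-Q4, H2-Q6, H2-Q7 and H2-Q10. Not every run joined paralogs, since Osm and Lif, cytokines of the IL-6 family, stood with Gatsl3 on chromosome 11 from 4218225 to 4272514. Some lower runs held myeloid receptor clusters. A run of 9 genes on chromosome 11 from 114675431 to 115048409 included Cd300a, Cd300lb, Cd300ld, Cd300c2 and Cd300ld3, with a median of -2.13. The 3 C1q chains, Mmp13 with Mmp12 and Mmp8, and Apoc2 with Apoc1 and Apoe formed other lower runs. A lower run of 9 mitochondrially encoded genes was as long (median -2.17), and others, such as Lgi4, Fxyd3 and Hpn, were not receptor clusters.

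Cytokine genes differed one by one. Among the IL-6, IL-12 and IL-15 ligands 6 of 11 were higher. Il6 itself went from 1.72 to 22.7 CPM (3.70, interval 3.50 to 3.94), Il12a, the p35 chain of IL-12, from 0.106 to 6.26 CPM (5.60, interval 5.12 to 6.75), and Il12b, the p40 chain, from 0.353 to 2.27 CPM (2.60). Lif (2.46), Osm (1.89) and Il15 (1.29) followed. Of 18 receptors of these families 3 were higher and 4 lower. The higher ones were Il15ra (1.91), Il12rb1 (1.45) and Il2ra (1.19), which bind IL-15, IL-12 and IL-2. Il27ra went from 10.5 to 0.999 CPM (-3.36), and the receptors for G-CSF and GM-CSF, Csf3r (-1.95) and Csf2ra (-1.89), and Il7r (-1.56) were also lower. Csf2ra binds the GM-CSF the cells were grown in, and read 188 CPM in control medium and 50.6 CPM with CAF.CM. Il10 and Il23a were not listed.

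In the IL-1 family 7 of 22 genes were higher and 1 lower. Il1b went from 7.19 to 62.7 CPM (3.12, interval 3.01 to 3.24) and Il1a from 27.5 to 90.0 CPM (1.71). Natural brakes of the family were among the higher genes too: the decoy receptor Il1r2 (0.671 and 3.92 CPM, 2.50) and the IL-18 binding protein Il18bp (45.4 and 151 CPM, 1.73). The receptor antagonist Il1rn stood at -0.20. In the TNF superfamily counts were even, with 5 of 24 higher and 5 lower. Tnfrsf9, the costimulatory receptor 4-1BB, went from 45.8 to 497 CPM (3.44, interval 3.40 to 3.48), and Tnfsf15 from 1.35 to 10.9 CPM (2.99). Tnf itself was lower, from 10.3 to 4.95 CPM (-1.05, interval -1.32 to -0.79), as was Tnfsf14 (-3.06).

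Chemokines differed in both directions. Of 18 listed, 6 were higher and 6 lower, and the median of 0.27 turned to -0.02 among the members that reached 5 CPM. Ccl5, a T cell and monocyte attractant, went from 26.5 to 2746 CPM (6.69, interval 6.65 to 6.74). Cxcl1, a neutrophil attractant, stood at 2.48, and Ccl22, which attracts regulatory T cells, at 1.43 (60.7 and 164 CPM). On the other side the macrophage chemokines Ccl6 and Ccl9, neighbours of Ccl5 on chromosome 11, went from 2698 to 340 CPM (-2.99) and from 1151 to 113 CPM (-3.34). Cxcl14 (-3.74) and the platelet-type chemokines Ppbp (-4.25) and Pf4 (-1.78) were lower too. Summed over the 10 listed CC chemokines, 3971 CPM in control medium stood against 3399 CPM with CAF.CM, so the gain in Ccl5 and the losses in Ccl6 and Ccl9 nearly offset each other.

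Receptors that steer migration were lower more often than higher, 7 against 4 of 17. Ccr2, the receptor of inflammatory monocytes, went from 580 to 18.8 CPM (-4.95, interval -5.08 to -4.82) and Cx3cr1, the fractalkine receptor gene, from 45.7 to 1.34 CPM (-5.06). C5ar2 (-3.06), C5ar1 (-2.47), Cxcr4 (-1.38) and Cmklr1 (-1.32) were lower as well. The formyl peptide receptor genes went the other way, with Fpr2 from 9.90 to 138 CPM (3.79) and Fpr1 from 7.09 to 20.6 CPM (1.54), although Fpr2 shares 48.3% of its words with other genes. Ccr7, the receptor that leads mature dendritic cells to lymph nodes, was level, at 48.5 and 49.0 CPM (0.02, interval -0.07 to 0.10).

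Surface proteins of the Ly6 and MS4A families and several single genes held further extremes. Ly6a, which encodes the stem cell and activation antigen Sca-1, went from 2.64 to 87.1 CPM (5.03, interval 4.88 to 5.20), and its neighbour Ly6i from 1.52 to 48.0 CPM (4.96). In that family 4 of 6 genes were higher, and Plaur, the urokinase receptor gene, was lower at -1.94. Of 9 MS4A genes 4 were higher and 2 lower. Ms4a4c led with 0.523 and 21.7 CPM (5.31), while Ms4a7, a macrophage member, went from 15.5 to 2.88 CPM (-2.41). Outside these lists Susd2, a sushi-domain membrane protein gene, went from 0.141 to 12.9 CPM (6.29, interval 5.87 to 7.25), and Upp1, uridine phosphorylase, from 0.975 to 19.9 CPM (4.31). At the low end stood Galnt9, a glycosyltransferase gene, with 18.9 CPM in control medium and 0.307 CPM, or 8 reads, with CAF.CM (-5.84, interval -7.16 to -4.96). Mamdc2 (42.0 and 0.768 CPM, -5.73), the intermediate filament gene Nes (36.0 and 1.15 CPM, -4.94), the Fc receptor-like gene Fcrls (29.5 and 1.19 CPM, -4.60), Rgs16 (-4.69), which encodes a brake on G protein signalling, and the matricellular gene Nov (-4.25) were also among the lowest.

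Enzymes that make small inflammatory mediators contributed some of the largest ratios. Nos2, inducible nitric oxide synthase, went from 16.7 to 751 CPM (5.49, interval 5.43 to 5.56), while Arg1, which competes for the same arginine, went from 5479 to 2201 CPM (-1.32). Acod1, which makes itaconate, went from 52.5 to 137 CPM (1.38), and Slc7a2, an arginine importer, from 861 to 1641 CPM (0.93). In the prostaglandin pathway the inducible steps Ptgs2 (0.897 and 35.7 CPM, 5.28) and Ptges (7.31 and 64.3 CPM, 3.13) were higher. The constitutive cyclooxygenase gene Ptgs1 was lower (207 and 78.0 CPM, -1.41), as were Hpgds (-1.94), of prostaglandin D2 synthesis, and Ptger2 (-1.05), a receptor for prostaglandin E2.

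Acute phase and iron genes had 9 of 23 members higher and 3 lower (median 0.70). Lcn2, lipocalin-2, which withholds iron from bacteria by binding their siderophores, went from 4.05 to 1668 CPM (8.68, interval 8.57 to 8.81), the highest ratio among the genes named here. Orm1, an orosomucoid, went from 1.36 to 59.0 CPM (5.41), Saa3, a serum amyloid, from 279 to 2326 CPM (3.06), Slpi, a protease inhibitor, from 16.1 to 94.6 CPM (2.56) and Hmox1, haem oxygenase 1, from 391 to 1818 CPM (2.22). Hamp, which encodes the iron hormone hepcidin, stood at 3.95, whereas its target, the iron exporter Slc40a1, was lower at -1.24, and Ptx3, a long pentraxin, at -1.49. Lcn2 is also a granule gene of neutrophils. Of 16 neutrophil markers, Lcn2 included, 7 were listed, 1 higher and 2 lower (median -0.17), and they summed to 621 CPM in control medium and 1844 CPM with CAF.CM. Without Lcn2 the other 6 summed to 617 and 176 CPM, so Lcn2 alone held the higher sum. Mmp8, given below with the metalloproteinases, held most of both remaining sums. The neutrophil marker S100a8 read 4.64 CPM in control medium and 4.11 CPM with CAF.CM (-0.17), and S100a9, Ly6g, Ngp, Ltf and Camp were not listed.

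Complement components differed in both directions, with 4 of 10 higher and 3 lower. The central component C3 went from 544 to 1941 CPM (1.83) and C1s1, a protease of the classical pathway, from 17.8 to 79.3 CPM (2.16). Cfb, factor B, went from 8.78 to 311 CPM (5.14), but it shares 81.5% of its words with other annotated genes, so its reads are uncertain. The C1q chains, made by resident-type macrophages, were lower together: C1qa from 40.2 to 3.73 CPM (-3.42), C1qb from 217 to 14.7 CPM (-3.88) and C1qc from 188 to 13.2 CPM (-3.83). All 5 listed receptor genes were lower, C3ar1 least at -1.01 and Itgax most.

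Presentation through MHC class I was higher at the level of its chains. Of 12 listed heavy and light chain genes 10 were higher, and their summed level went from 5006 to 15108 CPM. The classical genes H2-K1 (1145 and 3428 CPM, 1.58) and H2-D1 (1803 and 3948 CPM, 1.13) had smaller ratios than the nonclassical H2-Q7 (81.4 and 891 CPM, 3.45), H2-Q6, H2-T22 (2.70) and H2-Q4 (2.17). H2-Q6 and H2-T22 share 49.8% and 50.5% of their words with related genes and are uncertain. H2-M2 and H2-M3 were the 2 chains within 2-fold, at -0.12 and 0.65. Peptide loading moved less: Tap1, a subunit of the peptide transporter, went from 59.5 to 257 CPM (2.11) and was the only 1 of 9 loading genes to pass, next to Tap2 at 0.98. Among immunoproteasome genes Psmb9 (1.58) was higher and Psmb8 stood at 0.97, while Psmb10 was at -0.25.

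Class II genes did not share that direction, with 2 of 15 higher and 4 lower (median -0.43). Ciita, the coactivator that class II transcription depends on, went from 30.3 to 6.11 CPM (-2.31, interval -2.55 to -2.08). Cd74, the invariant chain, went from 1055 to 483 CPM (-1.13), H2-Aa stood at -0.71 and H2-Eb1 at -0.43, and H2-Ab1 was at -0.02. The DO chains H2-Oa (2.31) and H2-Ob (2.01), which restrain peptide exchange, were the 2 higher genes. Costimulatory and inhibitory ligands were mixed. Cd274, which encodes PD-L1, went from 250.1 to 863 CPM (1.79, interval 1.76 to 1.81) while Pdcd1lg2, PD-L2, went from 27.2 to 14.6 CPM (-0.89). Cd80 stood at 1.05, Cd86 at -0.10 and Cd40 at 1.97, from 1.24 to 4.95 CPM. Of 17 genes of migratory dendritic cells 1 was higher and 3 lower. Of 14 listed genes of conventional dendritic cells 1 was higher and 5 lower (median -0.56), and they summed to 2466 and 1095 CPM, Itgax included.

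Genes of macrophage character formed a large lower block. Of 17 macrophage genes 12 were lower and 0 higher (median -1.64), and their summed level went from 40136 to 11563 CPM. Lyz2, whose levels are given above, held most of both sums. Apoe, the lipid carrier, went from 4647 to 471 CPM (-3.30), Mrc1, the mannose receptor, from 78.7 to 9.10 CPM (-3.11) and Cd5l, a secreted scavenger protein, from 40.9 to 3.80 CPM (-3.42). Csf1r stood at -0.50 and Adgre1 at 0.21, so the receptors most used to define macrophages were not called. Monocyte genes were split, 4 higher and 4 lower of 9. Plac8 (1.60 and 26.7 CPM, 4.04), Ly6c2 (18.7 and 88.6 CPM, 2.24), Chil3 and Cd14 (405 and 988 CPM, 1.29) were higher, and Ccr2, F13a1 (-2.89) and S100a4 (-2.19) were among the lower ones.

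Scavenger receptors and C-type lectins were also lower more often than higher. These lists share genes with those cited above, since Cd5l is also in the scavenger receptor list and Mrc1 in the C-type lectin list. Among scavenger receptors 9 of 18 were lower and 1 higher (median -1.06). Cd36, a receptor for lipids and dying cells, went from 2846 to 707 CPM (-2.01), Msr1 from 368 to 103 CPM (-1.84) and the efferocytosis kinase gene Mertk from 61.2 to 19.6 CPM (-1.64). Marco, a bacterial scavenger receptor, was the exception, from 10.2 to 35.7 CPM (1.81). Of 21 C-type lectins 8 were lower, among them Clec12a (107 and 11.1 CPM, -3.27) and the beta-glucan receptor gene Clec7a (816 and 180 CPM, -2.18). The 2 higher ones were Clec4e, the Mincle receptor for mycobacterial lipid (73.2 and 383 CPM, 2.39), and Clec10a (1.28). Siglecf stood at -5.73 on 5 reads with CAF.CM, and Fcgr3, an activating Fc receptor, at 1.17 (1047 and 2354 CPM).

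**Figure D4:**
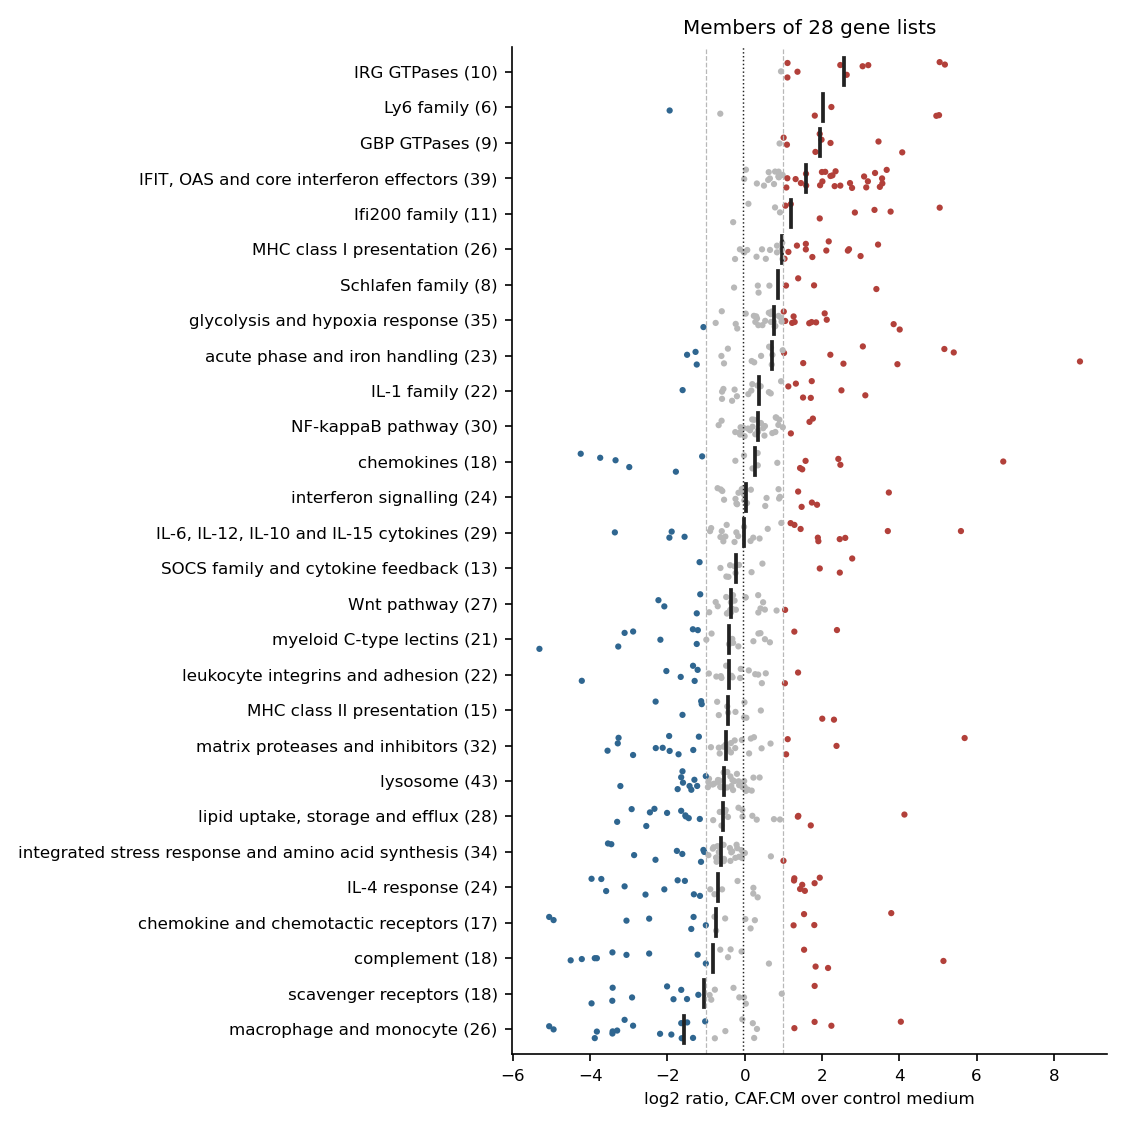
Log2 ratio of CAF.CM over control medium for each listed member of 28 gene lists, with list sizes in brackets, black bars at list medians and a dotted line at the median of all genes (-0.04). Lists run from IRG GTPases (median 2.56) to macrophage and monocyte genes (median -1.56), with red points at least 2-fold higher, blue points at least 2-fold lower and dashed lines at 2-fold.

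Genes that remodel and hold matrix were lower more often than higher. The 16 listed metalloproteinase genes summed to 15485 CPM in control medium and 3055 CPM with CAF.CM, but 15 of them, without Mmp12, summed to 3141 and 2001 CPM. By count 4 were lower, 1 higher and 11 within 2-fold (median -0.39). Mmp12 (-3.55), Mmp13 (285 and 29.1 CPM, -3.29), Mmp9 (264 and 27.4 CPM, -3.27) and Mmp8 (544 and 140.1 CPM, -1.96) were lower, while Mmp14 stood at 0.24 and Mmp2 at 0.67. Timp1, a metalloproteinase inhibitor, was higher (9.81 and 51.0 CPM, 2.38), and Timp2 lower (70.4 and 16.1 CPM, -2.12). Of 13 integrin genes 5 were lower and 0 higher, with Itgax followed by Itgb5 (-2.03), Itgb3 (-1.66), Itga6 (-1.30) and Itgam (-1.22), and Itgam, listed under 2 identifiers, is given by the one with more reads and shares 73.8% of its words with other genes. Nrp1, a semaphorin and VEGF coreceptor gene, went from 252 to 20.3 CPM (-3.63) and Igf1 from 447 to 111 CPM (-2.01).

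Genes that respond to IL-4, present in every culture, were both higher and lower, 7 and 10 of 24. Egr2, an IL-4-induced transcription factor, was lower at -3.59, and the cell fusion genes Dcstamp (48.9 and 8.22 CPM, -2.57) and Ocstamp (-1.55) were lower. Cish, Chil3, Tgm2, Ccl24 (1.49), Ccl22 and Clec10a were higher, and Retnla, a standard marker of this response, stood at -0.59. In lipid handling 11 of 28 genes were lower and 4 higher. The lower genes included Lpl, lipoprotein lipase (4096 and 811 CPM, -2.34), Lipa, lysosomal lipase (1781 and 569 CPM, -1.65), Plin2, a lipid droplet coat protein gene (573 and 198 CPM, -1.54), and Pparg (4.83 and 0.806 CPM, -2.55). Dgat2, of triglyceride synthesis (0.791 and 14.3 CPM, 4.13), and Npc2, a cholesterol carrier (621 and 2031 CPM, 1.71), were higher.

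Sterol synthesis stood near 0, with 2 of 21 genes higher and 0 lower (median 0.12). In the fatty acid branch 3 of 14 genes were higher: Acsl1 (101 and 488 CPM, 2.28), Scd1 (1.82) and Scd2 (1.73). Of 35 genes of glycolysis and the hypoxia response, 12 were higher and 1 lower (median 0.75). Among hypoxia targets Ddit4, an mTORC1 inhibitor, went from 6.27 to 101 CPM (4.01), Ero1l from 338 to 1474 CPM (2.12), Egln3, a HIF prolyl hydroxylase, from 34.8 to 146 CPM (2.07), and Vegfa from 1134 to 2655 CPM (1.23). The glycolytic genes Pfkfb3 (1.67), Gpi1 (1.29), Pgk1 (1.26) and Hk2 (1.05) were higher and Pfkfb4 lower (-1.07), and Pgk1 shares 68.3% of its words with other genes.

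Amino acid supply showed the reverse. Of 34 genes of the integrated stress response and amino acid synthesis 1 was higher and 9 lower (median -0.61). The serine synthesis genes Psat1 (37.3 and 3.19 CPM, -3.54) and Phgdh (9.91 and 0.883 CPM, -3.45) and the asparagine synthetase gene Asns (38.7 and 5.30 CPM, -2.86) led them, and Phgdh shares 73.5% of its words with other genes. Atf4, which drives these genes, stood at -0.33, and all 12 tRNA synthetase genes had ratios below 0, from -1.07 (Yars) to -0.19 (Eprs). The unfolded protein response list, another stress branch, had 0 of 18 genes higher and 1 lower, Herpud1 (-1.20). Lysosomal genes were lower in 10 of 43 and higher in 0 (median -0.54), with Ctsb going from 4894 to 1985 CPM (-1.30), Ctsl from 2514 to 823 CPM (-1.61), and the factors Mitf (-1.60) and Tfeb (-1.38) among the lower members.

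Of 26 survival and cell death genes, 3 were higher and 4 lower. Bcl2 (-1.17) and Bcl2l1 (-1.29) were lower, and Birc2 (1.15), Casp4 (1.32) and the necroptosis gene Mlkl (1.11) higher. Of 49 cell cycle genes 9 were higher and 3 lower, and the median of 0.17 turned to -0.10 among the members that reached 5 CPM. The higher mitotic genes Hmmr (1.60) and Bub1 (1.41) stayed under 5 CPM, while Ccnd2 went from 18.8 to 59.1 CPM (1.65), the inhibitor Cdkn1a from 61.7 to 131 CPM (1.08) and Pcna from 119.5 to 46.2 CPM (-1.37). In the Wnt pathway 1 of 27 genes was higher, Fzd7 (56.6 and 117 CPM, 1.04), and 4 were lower, among them the receptor Fzd1 (27.0 and 5.72 CPM, -2.23) and Myc (4.79 and 1.11 CPM, -2.08). Ctnnb1, beta-catenin, stood at -0.38 (347 and 267 CPM), and the feedback targets Axin2, Nkd1 and Notum were not listed. Cytosolic ribosomal protein genes had 0 of 80 beyond 2-fold.

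Levels in the other libraries show how far the CAF.CM values stand out. The comparisons share libraries, so levels are set side by side and no agreement between ratios is counted. Lcn2 read 6.72 CPM with Wnt2 and 1398 CPM with CAF.CM plus antibody, and Ccl5 30.4 and 3289 CPM. Both genes were thus high in both libraries that had CAF.CM and low in both that did not. Listed genes held 154399767 reads with Wnt2 and 22791494 with CAF.CM plus antibody, beside 143054888 in control medium and 25220874 with CAF.CM. The libraries with CAF.CM were therefore also the shallow ones. Depth and CAF.CM cannot be told apart across these libraries either, and the part of depth in these levels was not tested. Ccr2 read 315 CPM with Wnt2 and 3.96 CPM with CAF.CM plus antibody, and Itgax 223 and 30.3 CPM. Cx3cr1 and Clec12a were below control medium in all 3 treated libraries, at 4.07 and 2.92 CPM with Wnt2. Wnt2 alone had more of some CAF.CM-high genes than control medium: Il1b read 35.3 CPM, Socs3 40.2 CPM, Tnfrsf9 389 CPM and Ddit4 92.7 CPM. It did not for the antiviral genes Ifit2 (2.30 CPM) and Gbp4 (1.29 CPM), against 5.50 and 1.82 CPM in control medium. These genes are examples, and the antiviral lists as a whole were not counted in the Wnt2 library.

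With the antibody in CAF.CM, 5 antiviral genes, chosen after their values were seen, stood between CAF.CM alone and control medium. Ifit2 read 13.8 CPM, Iigp1 5.04 CPM and Ifi213 1.90 CPM, beside 62.3, 25.5 and 14.8 CPM in CAF.CM alone. Rsad2 (144 CPM) and Gbp4 (24.1 CPM) lay nearer to their CAF.CM levels of 177 and 31.1 CPM. Other CAF.CM-high genes read as much or more with the antibody: Il6 25.5 CPM, Il12a 10.2 CPM, Nos2 1362 CPM, Ptgs2 98.3 CPM and H2-Q7 1230 CPM. Socs3 read 45.9 CPM and H2-Ab1 521 CPM. H2-Ab1 was lowest with Wnt2 alone, at 71.0 CPM, and Ciita at 4.21 CPM there.

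**Figure D5:**
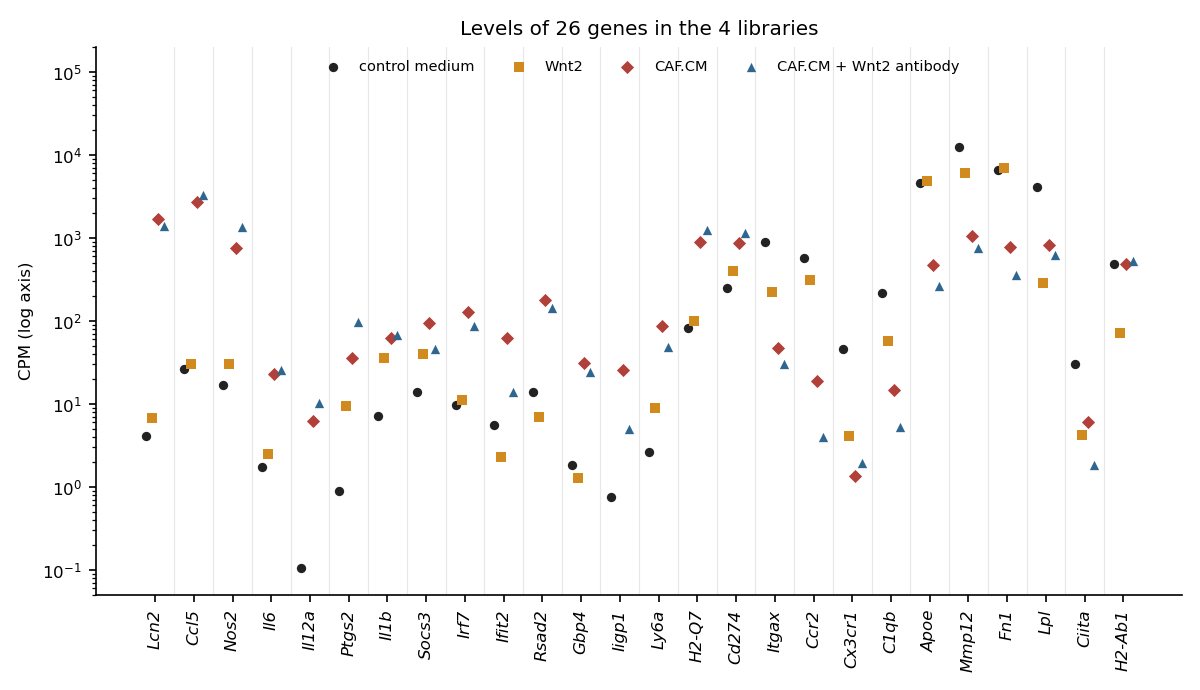
CPM (vertical log axis) of 26 genes in the control medium, Wnt2, CAF.CM and CAF.CM plus antibody libraries, 1 symbol per library and none where a gene is not listed. Lcn2, Ccl5 and Nos2 are high in both CAF.CM libraries, and Ifit2 reads 62.3 CPM with CAF.CM and 13.8 CPM with the antibody added.

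Several features of the libraries went with these ratios, and their part in the results was not tested. The share of reads in protein-coding genes was 81.2% in control medium and 75.8% with CAF.CM. Processed pseudogenes were higher in 38.4% of 164 genes (median 0.73). Of 13 mitochondrially encoded messages 11 were lower (median -2.03), while the 76 nuclear respiratory chain genes had 0 higher and 1 lower. With protein-coding genes ranked by transcript length and cut into 5 equal classes, 8.55% were higher and 7.42% lower in the shortest class, and 4.47% and 9.20% in the longest. Genes that share at least 50% of their words with another gene made up 5.18% of the table and 15.5% of the higher genes.

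Markers of other cell types were listed only in part, and neutrophil markers are given above. Plasmacytoid dendritic cell markers summed to 105 CPM in control medium and 231 CPM with CAF.CM over 5 of 9 listed. Erythroid and megakaryocyte markers summed to 206 and 63.3 CPM over 2 of 10 listed. Epithelial and endothelial markers summed to 71.0 and 66.1 CPM over 3 of 10. Of 9 eosinophil markers 1 was listed, Siglecf, at 11.4 and 0.192 CPM. Of 18 fibroblast markers 6 were listed, summing to 16.5 CPM in control medium and 41.7 CPM with CAF.CM. Dcn, decorin, went from 0.509 to 10.7 CPM (4.33) and Col5a1 from 5.12 to 23.6 CPM (2.20), Postn was lower at -2.67, and the other 3 were within 2-fold (median of all 6 0.13). Without Dcn and Col5a1 the sums were 10.9 and 7.41 CPM. The markers Col1a1, Col1a2, Col3a1, Lum and Pdgfra were not listed. Mast cell and basophil markers summed to 12.3 and 2.42 CPM over 3 of 12 listed, and B cell markers to 17.0 and 3.34 CPM over 2 of 10. Of 14 T and NK cell markers 8 were listed, at 12.5 and 12.3 CPM in all. Gzma was the 1 higher gene, at 2.13, and 4 were lower, among them Cd3g (-1.53) and Trac (-1.10). How far such cells differed between the cultures was not tested.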

How the data were processed

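RNA of 4 cultures was sequenced, with 1 library per group. STAR 2.4.2a, RSEM 1.2.29, edgeR, GRCm38.p5 and mm10 are named, per the submitters' processing notes. The values used are CPM deposited by the authors after their own library size scaling. The authors also deposited log2 fold changes, used as an alternative, and p-values, which do not measure spread between cultures and were not used.

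All CPM values were whole multiples of the worth of 1 read (within 0.1 of a read), so reads were recovered. Log2 ratios used the authors' scaling and a prior count of 2. Intervals are 95% exact conditional binomial intervals on those recovered counts and cover counting error only, since reads carry no molecular identifiers. Python 3.11.15, numpy 2.4.6, pandas 2.3.3, scipy 1.17.1, edgeR 4.0.16 and DESeq2 1.42.0 were used, the last pair for scaling factors only, and scripts were tested on simulated data. Positions came from GENCODE M21 (99.83% of genes matched). Shared words are the share of a gene's longest transcript's 31-base words also found in another gene.

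Named genes are the 15 highest and 15 lowest ratios of protein-coding genes with at least 200 reads over both libraries and 5 CPM in 1 of them, the 10 largest gains and losses in CPM, up to 6 members per list by size of ratio, whole families of up to 14, and Socs3, Stat3, Jak2, Ciita, Cd274 and Ctnnb1. Other list members were named after their values were seen. Members and the 63 gene lists were chosen with earlier results of these data known. Some genes the rule took are not reported here. Alternatives were other scalings, prior counts, filters, thresholds, a thinned control library and the deposited fold changes.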

Additional observations from a re-analysis of the deposited data

How the results depend on the processing

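No paired analysis was possible because each group has 1 library, and for the same reason no replicate could be left out. The counts of 891 higher and 1158 lower genes became 500 and 738 when a gene had to reach 5 CPM in 1 library, where fewer genes are tested, 1838 and 2387 at 1.5-fold, and 268 and 290 at 4-fold. Under the other 10 of 13 alternatives they stayed within 1.5 times. Scaling by total reads gave 984 and 1041, DESeq2 size factors 952 and 1072, and edgeR's TMM 962 and 1060, and these scalings moved the median of all genes by 0.06, 0.04 and 0.05. Thinning the control library to 17.6% of its reads gave 907 and 1128. Leaving out genes that share 50% or more of their words, chosen after seeing the data, gave 753 and 1087. Of 692 values for list medians 653 moved by less than the criterion and 39 by more, and the sign changed in at least 1 setting for 10 lists. Of 3480 values for 324 named genes 222 moved, 11 genes crossed 2-fold in some setting, and the sign changed for Pdgfrb and Thy1. Depth limits the low end: the median interval was 1.18 wide (log2) for genes under 2 CPM and 0.0684 for those of at least 200 CPM.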

Other observations

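The genes named here were picked after their values were seen. Purinergic signalling genes differed in both directions. P2ry14, a receptor for UDP-glucose, read 35.2 CPM in control medium and 81.1 CPM with CAF.CM. P2ry6, a receptor for UDP, went from 76.6 to 15.9 CPM (log2 ratio -2.26), and Entpd1, the CD39 enzyme that degrades extracellular ATP, from 60.4 to 16.7 CPM (-1.85). Nt5e, the CD73 enzyme of the next step, stood at a ratio of 0.20 with 26.4 CPM, while the Wnt2 library had 231 CPM. Of 193 solute carrier genes 34 were lower and 7 higher, among them the fatty acid transporter gene Slc27a6 (18.5 and 2.19 CPM, -3.06) and the mitochondrial iron importer gene Slc25a37 (77.4 and 188 CPM, 1.28). The paired membrane protein genes Tmem176a (-2.12) and Tmem176b (-2.22) were lower together. Within the CD300 cluster Cd300lf went against its lower neighbours, with 43.6 and 81.2 CPM (0.90).

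Vnn3, a pantetheinase gene, went from 1.08 to 19.7 CPM (4.16) and Hsd11b1, which activates glucocorticoids, from 3.30 to 29.5 CPM (3.15). Pde1c, a phosphodiesterase gene, went from 71.8 to 4.95 CPM (-3.85), and Lrrc32, whose product docks latent TGF-beta, from 20.2 to 2.07 CPM (-3.27). Apol9b had 0 reads in control medium and 5.26 CPM with CAF.CM, at least 248-fold higher against a floor of 3 reads per library. It shares 0.519% of its words with other genes, whereas 25 of the 32 genes with 0 reads in 1 library share at least 50%. The predicted gene Gm26870 read 0.827 CPM in control medium, 10.3 CPM with Wnt2, 319 CPM with CAF.CM and 845 CPM with the antibody. Gm10800 read 0.636, 6.50, 132 and 378 CPM in the same order. Rn7s1 went from 34260 to 4559 CPM and Rn7s2 from 54872 to 116273 CPM, and 100% of the words of each are shared with other genes.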
